A study of Mus musculus with 5 samples.

Results

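The solute carrier (SLC) genes of the mouse trachea were taken as the mouse features whose symbol begins with Slc and a digit, without the mitochondrial Slc25 family, Slc12a2 and Slc26a4, and with at least 200 UMIs over all mouse barcodes of the 5 libraries. The rule gave 163 members of 30907 mouse features. Symbols of this form numbered 326 at any level, of which 277 had at least 1 UMI and 49 had 0. The members were chosen by their total counts, so that total is not a result. The members nearest above the minimum were Slc19a2 with 237 UMIs, Slc7a5 with 235, Slc5a6 with 234, Slc35g2 with 233 and Slc23a4 with 207. The genes nearest below it were Slc18a1 with 197 UMIs, Slc9a7 with 180, Slc2a9 and Slc8a1 with 179 each and Slc43a3 with 176. The name of plasma membrane carriers holds only in part. By known location 108 members are plasma membrane proteins or of uncertain site, 51 act chiefly in the Golgi, endosomes, lysosomes or other organelles, and 4 (Slc9a3r1, Slc9a3r2, Slc4a1ap and Slc7a6os) are not transporters.

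The tracheas of 2 adult wild-type 129X1/S1 recipients were compared with that of 1 animal without injury or transplanted cells. Each recipient was given 2% polidocanol, a detergent that strips the surface epithelium, and 5 h later received GFP-marked basal cells made from mouse embryonic stem cells (iBCs). One recipient was taken at day 40 and the other at day 56, the tracheas were digested with pronase, and live (Calcein Blue+) cells were sorted. GFP+ cells form the donor-derived libraries (n = 2), GFP- cells of the same animals the endogenous libraries (n = 2), and all live cells of the untouched trachea the control library (n = 1). Values of a pair are given with day 40 before day 56. A recipient and a day are the same thing in these data, and both libraries of a day come from 1 animal. Effects of the stem cell line, of culture and of transplantation cannot be told apart in the donor-derived cells.

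Solute carriers move amino acids, sugars, lactate, nucleosides, vitamins, metals and inorganic ions across membranes, many of them driven by sodium or proton gradients that the sodium pump and the acid-base carriers maintain. In airway epithelium they bring in nutrients and recover peptides and ions from the surface liquid. Basal cells are the stem cells of this epithelium, secretory (club) cells release secretoglobins into the liquid, and ciliated cells move it. By cargo, the 163 members comprised 28 carriers of amino acids and amines, 9 of monocarboxylates, 11 of sugars, 24 of metals, 23 of acid-base equivalents and inorganic ions, 22 Slc35 carriers of nucleotide sugars and related cargo, 4 Slc5 sodium-coupled carriers, 38 carriers of other organic solutes and the 4 that are not transporters.

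After filtering, 1693 and 1731 donor-derived, 1300 and 1219 endogenous and 611 control cells were kept. The members held 0.307% and 0.294% of mouse UMIs in the donor-derived libraries, 0.342% and 0.326% in the endogenous pair and 0.355% in control cells. The median mitochondrial share was 3.41% and 4.07% in donor-derived, 5.39% and 4.85% in endogenous and 6.19% in control cells, and its part in the results was not tested. Cells were clustered anew and named by markers, and counts were summed per class and library and given as CPM (counts scaled to the same total of UMIs). Basal-like cells, with Krt5 at 1452 to 1905 CPM, numbered 629 and 427 donor-derived, 352 and 234 endogenous and 66 control cells. Secretory-like cells numbered 157 and 353, 375 and 273, and 369 in the same order, and ciliated-like cells 33 and 112, 126 and 119, and 134. Outside these classes and their main tests stayed the unnamed clusters 0, 2 and 10. They held 90 and 676, 496 and 115, and 216 and 27 donor-derived cells. EGFP was at 34.5 to 113 CPM in donor-derived cells of these classes and at 0 in the other libraries. Donor-derived and endogenous cells of a class lay mostly in different clusters: basal-like in 5, 7 and 8 against 1, secretory-like in 4 against 3, 9 and 11, and ciliated-like in 15 against 6. Cluster 5, with 290 and 124 of the donor-derived basal-like cells, was led by the interferon-inducible genes Cxcl10, Iigp1 and Gbp2b. Scgb1a1, the main club cell product, was at 502 to 9001 CPM in basal-like cells, beside 207200 to 310800 CPM in secretory-like cells. No pair of libraries shared more than 2 cell barcodes.

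In basal-like cells the taurine carrier Slc6a6, the peptide carrier Slc15a2 and Slc16a11 of the monocarboxylate family were far lower in donor-derived than in endogenous cells. Slc7a2 (cationic amino acids), Slc43a2 (large neutral amino acids), Slc16a12 (creatine) and Slc39a4 (zinc) were higher. Of 137 members with enough counts to test, 16 were higher and 17 lower at an adjusted p under 0.05 (edgeR quasi-likelihood test, Benjamini-Hochberg adjustment over 11062 genes). This is 24.1% of the members tested, beside 17.3% of all genes (8.54% higher and 8.71% lower). The median log2 fold change was 0.0024 over the members and 0.012 over all genes. The other 26 members reached at most 6.46 CPM in any library of the class. With 1 animal a day, p-values measure only the spread between these libraries. Statements that groups do not overlap describe 2 libraries a group and add no evidence to the test.

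Slc16a11, of the monocarboxylate transporter family, had 1.01 and 0.417 CPM in the donor-derived libraries, 69.1 and 56.4 CPM in the endogenous ones and 93.6 CPM in the control (log2 fold change -6.43 ± 0.31, edgeR adjusted p = 4.04e-06). Outside the epithelium of the endogenous libraries its level ran between 0 and 40.7 CPM, with 0 and 0.775 CPM in myeloid, 30.1 and 9.93 CPM in T and NK, 2.96 and 19.5 CPM in B lineage and 0 and 40.7 CPM in fibroblast cells. Slc15a2, the proton-coupled carrier of di- and tripeptides known as PEPT2, had 10.4 and 9.79 CPM in the donor-derived libraries, 130 and 141 CPM in the endogenous ones and 137 CPM in the control (log2 fold change -3.87 ± 0.15, edgeR adjusted p = 2.99e-06). Slc15a2 was also a leading gene of the endogenous and control secretory-like cluster 9, and its calls held when cells were clustered without the SLC genes. Cluster 9 held 0 and 1 donor-derived and 99 and 52 endogenous cells and was led by Sult1d1, Hspb1 and Aqp3. In the clustering without the SLC genes, the cluster led by these genes was unnamed and so outside the class. Slc6a6, the sodium- and chloride-dependent taurine transporter, had 86.5 and 85.8 CPM in the donor-derived libraries, 503 and 466 CPM in the endogenous ones and 592 CPM in the control (log2 fold change -2.63 ± 0.13, edgeR adjusted p = 4.98e-06). For these 3 genes both donor-derived libraries lay below all others. Slc35d2, a Golgi carrier of nucleotide sugars, had 0 UMIs in both donor-derived libraries, against 13 and 11 UMIs in the endogenous ones, which puts it at least 7.82-fold lower with each donor-derived library set at 3 counts.

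**Figure D1:**
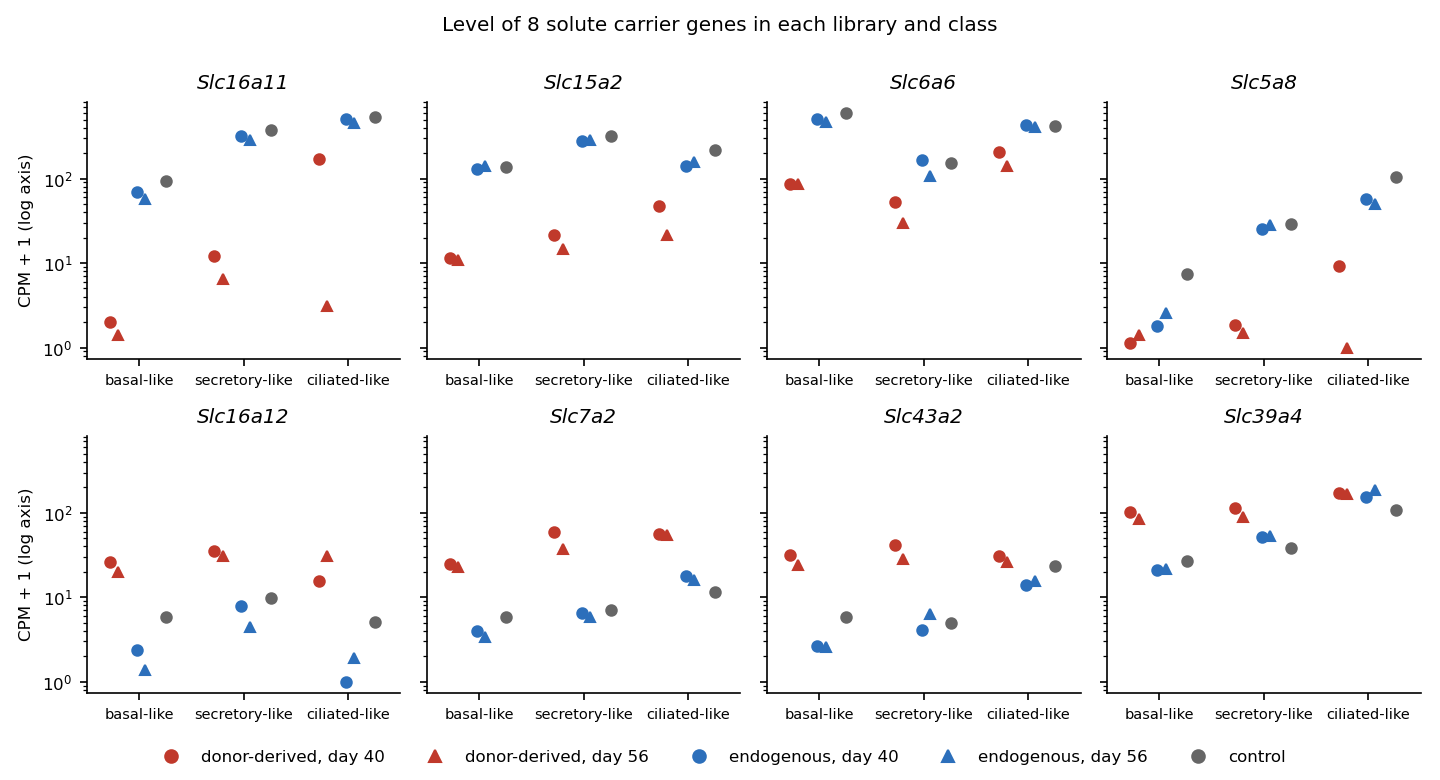
Level of SLC genes as CPM + 1 on a log axis in the basal-like, secretory-like and ciliated-like classes, with 1 point per library: donor-derived in red, endogenous in blue, control in grey. Slc16a11, Slc15a2 and Slc6a6 sit lower in the donor-derived libraries, with the day 40 ciliated-like point of Slc16a11 nearer the rest at 169 CPM, and Slc16a12 and Slc7a2 sit higher.

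Amino acid carriers moved in both directions: 5 of the 28 were higher and 5 lower, with 25 tested. Slc43a2 (LAT4, a carrier of large neutral amino acids) had 30.8 and 22.9 CPM in the donor-derived libraries, 1.62 and 1.58 CPM in the endogenous ones and 4.84 CPM in the control (log2 fold change 3.92 ± 0.34, edgeR adjusted p = 8.79e-05). Slc7a2 (CAT2), which imports arginine and other cationic amino acids, had 23.5 and 22.1 CPM in the donor-derived libraries, 2.97 and 2.36 CPM in the endogenous ones and 4.84 CPM in the control (log2 fold change 2.92 ± 0.29, edgeR adjusted p = 0.000161). Neither gene's groups overlapped. The glutamate carriers known from astrocytes were among the higher members: Slc1a3 (GLAST) had 84.95 and 142 CPM in the donor-derived libraries, 15.9 and 25.2 CPM in the endogenous ones and 30.7 CPM in the control, and Slc1a2 (GLT-1) had 7.55 and 10.6 CPM against 0.270 and 1.18 CPM and 0 CPM. Their log2 fold changes were 2.34 ± 0.34 and 3.60 ± 0.58, and both calls were lost without the endogenous day 40 library (edgeR adjusted p = 0.0599 and 0.0635). Slc6a14, a broad sodium- and chloride-coupled amino acid carrier, rested on 21 and 27 donor-derived and 1 and 1 endogenous UMIs, a ratio of 11.8 (95% interval 3.08 to 99.8, counting error only), and its call was lost in DESeq2 (adjusted p = 0.0671) and without the endogenous day 40 or day 56 library (edgeR adjusted p = 0.223 and 0.14). On the lower side besides Slc6a6 stood Slc38a1, Slc6a9 (the glycine transporter GlyT1), Slc38a9 (the lysosomal arginine sensor) and Slc1a5 (ASCT2, a glutamine exchanger). The calls of Slc38a1, Slc38a9 and Slc1a5 were lost in DESeq2 (adjusted p = 0.0524, 0.22 and 0.0611). That of Slc38a9 was also lost at Leiden resolution 0.5 and 2.0, with cluster 0 joined and whichever library was left out. That of Slc38a1 was also lost without either donor-derived library, and that of Slc6a9 was lost without either endogenous library. Slc1a5 had 32.5 and 31.1 CPM in the donor-derived libraries, 48.9 and 44.9 CPM in the endogenous ones and 71.04 CPM in the control (log2 fold change -0.70 ± 0.16), a call lost without either endogenous library.

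Slc3a2, the heavy chain that brings several amino acid exchangers to the surface and the member with the most UMIs (15026), did not pass the test in basal-like cells, at 213 and 254 CPM in the donor-derived libraries, 189 and 253 CPM in the endogenous ones and 157 CPM in the control (edgeR adjusted p = 0.882). Slc38a2, a sodium-coupled carrier of small neutral amino acids, had 160 and 282 CPM in the donor-derived libraries and 123 and 200 CPM in the endogenous pair (edgeR adjusted p = 0.687). The groups of both genes overlapped. Slc7a11, the cystine-glutamate exchanger xCT, had 81.8 and 31.5 CPM in the donor-derived libraries, 2.97 and 5.91 CPM in the endogenous ones and 1.61 CPM in the control. Its groups did not overlap, but the donor-derived libraries stood far apart and it did not pass (log2 fold change 3.62 ± 0.79, edgeR adjusted p = 0.0672, and 2.71e-07 to 0.217 over the alternatives). With the recipient as a block its edgeR adjusted p was 0.0113.

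Among the 9 monocarboxylate carriers, 3 were higher and 2 lower in basal-like cells, with 6 tested. Slc16a12 (MCT12, which carries creatine) had 25.2 and 19.2 CPM in the donor-derived libraries, 1.35 and 0.394 CPM in the endogenous ones and 4.84 CPM in the control (log2 fold change 4.37 ± 0.43, edgeR adjusted p = 0.00016). Slc16a1 (MCT1, a lactate carrier) had 12.5 and 14.8 CPM in the donor-derived libraries, 0.810 and 4.33 CPM in the endogenous ones and 8.07 CPM in the control (log2 fold change 2.40 ± 0.52). Slc16a7 (MCT2) had 43.9 and 51.9 CPM in the donor-derived libraries and 95.3 and 65.4 CPM in the endogenous pair (log2 fold change -0.90 ± 0.20). The groups of all 3 did not overlap, but the calls of Slc16a1 and Slc16a7 were lost without the endogenous day 40 library. Both were also lost with the unnamed cluster 0 joined to the class (edgeR adjusted p = 0.0669 and 0.13). Slc16a13 was the other higher member. Its call was lost in DESeq2 (adjusted p = 0.12), at Leiden resolution 0.5 and with cluster 0 joined (edgeR adjusted p = 0.114 and 0.0581). It was also lost without the endogenous day 40 or day 56 library and without the donor-derived day 40 library. Slc16a11 (chromosome 11, 70212752 to 70216417, + strand) and Slc16a13 (70216789 to 70221064, - strand, GRCm38) end 371 bases apart on opposite strands. The sources used here do not give whether counting used the strand, so reads could have been assigned to the wrong gene of this pair, whose log2 fold changes were -6.43 ± 0.31 and 1.40 ± 0.34.

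One of the 24 metal carriers was higher in basal-like cells and one lower, with 23 tested. Slc39a4 (ZIP4), a zinc importer, had 102 and 83.8 CPM in the donor-derived libraries, 19.98 and 20.9 CPM in the endogenous ones and 25.8 CPM in the control (log2 fold change 2.06 ± 0.17, edgeR adjusted p = 7.26e-05). Slc48a1 (HRG1), which moves haem out of endosomes and lysosomes, had 15.9 and 13.5 CPM in the donor-derived libraries and 32.4 and 32.3 CPM in the endogenous pair (log2 fold change -1.26 ± 0.19). Neither gene's groups overlapped. Of the 23 acid-base and ion carriers, Slc4a4 (the electrogenic sodium bicarbonate cotransporter NBCe1) and Slc12a7 (the potassium chloride cotransporter KCC4) were higher, and Slc4a7 (NBCn1, its electroneutral relative), Slc9a9 (an endosomal sodium-proton exchanger) and Slc12a4 (KCC1) were lower. The Slc12a7 call was lost in DESeq2 (adjusted p = 0.172), at Leiden resolution 0.5 and 2.0 (edgeR adjusted p = 0.194 and 0.0671) and with cluster 0 joined (0.0952). It was also lost without the donor-derived day 40 library and without either endogenous library. That of Slc12a4 was lost at resolution 0.5 (0.0577) and without the endogenous day 40 library. Slc4a4 had 24.4 and 27.7 CPM against 7.29 and 11.4 CPM and 3.23 CPM in donor-derived, endogenous and control cells, and Slc4a7 had 15.2 and 17.1 CPM against 44.02 and 38.6 CPM and 38.8 CPM in the same order. Their log2 fold changes were 1.37 ± 0.25 and -1.50 ± 0.18, and the Slc4a4 call was lost without the endogenous day 40 library. Of the 11 sugar carriers, Slc2a12 and Slc37a1 were higher and Slc50a1, the mammalian SWEET sugar carrier, was lower at 29.1 and 21.2 CPM in the donor-derived libraries and 63.2 and 58.7 CPM in the endogenous pair. The Slc2a12 and Slc37a1 calls were lost in DESeq2 (adjusted p = 0.231 and 0.0574) and without either endogenous library. That of Slc2a12 was also lost at Leiden resolution 0.5 and 2.0, with doublets kept, with cluster 0 joined and without either donor-derived library. Slc2a1 (GLUT1) did not pass, at 24.2 and 25.6 CPM in the donor-derived libraries and 19.2 and 21.7 CPM in the endogenous pair (edgeR adjusted p = 0.676).

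With the unnamed cluster 0, whose best-scored type was basal, joined to the class, 25 of the 33 basal-like calls were kept. Those lost included Slc16a1, Slc16a7 and Slc22a18. The calls also depended on the endogenous libraries. Without the one of day 40, 5 members were higher and 8 lower, and without the one of day 56, 9 and 11. The 13 members called in every alternative were Slc16a11, Slc15a2, Slc6a6, Slc35d2, Slc9a9, Slc4a7, Slc50a1, Slc22a23 and Slc48a1 on the lower side and Slc16a12, Slc43a2, Slc7a2 and Slc39a4 on the higher side. The summed level of 7 myeloid markers, which include Cd74, came to 4966 and 3576 CPM in the donor-derived basal-like sums, against 1180 and 1591 CPM in the endogenous sums, with 5 and 6 of the 7 detected in donor-derived and 5 and 5 in endogenous cells. The pan-leukocyte gene Ptprc was at 0 in both donor-derived basal-like sums and at 0.81 and 0.788 CPM in the endogenous sums.

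The promoters of members with clear differences are given below. RefSeq windows (build GRCm38.p6, 250 bases before to 50 after the start site, 5′ to 3′ on the gene's strand) were found for 125 of the 163 members, in 165 windows. Slc16a11 (chr11:70213660-70213959, + strand) and Slc15a2 (chr16:36784913-36785212, - strand) are shown as lower members, Slc16a12 (chr19:34747279-34747578, - strand) as a higher one, and Slc7a11 (chr3:50443564-50443863, - strand) for its range across libraries and types. Capitals mark the motif letters found. Slc6a6, Slc7a2 and Slc16a13 had no window.
Slc16a11: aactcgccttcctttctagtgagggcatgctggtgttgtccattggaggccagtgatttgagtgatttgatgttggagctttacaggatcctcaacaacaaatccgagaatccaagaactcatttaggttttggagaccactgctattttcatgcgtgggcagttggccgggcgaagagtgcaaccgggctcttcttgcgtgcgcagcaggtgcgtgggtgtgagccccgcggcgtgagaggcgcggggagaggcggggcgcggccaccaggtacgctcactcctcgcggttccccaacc
Slc15a2: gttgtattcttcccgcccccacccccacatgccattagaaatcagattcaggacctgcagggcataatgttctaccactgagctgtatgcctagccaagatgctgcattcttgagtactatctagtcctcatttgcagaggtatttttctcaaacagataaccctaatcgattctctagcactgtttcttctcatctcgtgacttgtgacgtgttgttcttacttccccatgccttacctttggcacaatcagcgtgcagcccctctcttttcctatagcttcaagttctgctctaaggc
Slc16a12: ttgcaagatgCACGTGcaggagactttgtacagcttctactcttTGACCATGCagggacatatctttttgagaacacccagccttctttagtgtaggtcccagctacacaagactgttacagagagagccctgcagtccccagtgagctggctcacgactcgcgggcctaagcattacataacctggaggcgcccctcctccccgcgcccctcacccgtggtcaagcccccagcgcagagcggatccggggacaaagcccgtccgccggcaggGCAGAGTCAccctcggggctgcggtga
Slc7a11: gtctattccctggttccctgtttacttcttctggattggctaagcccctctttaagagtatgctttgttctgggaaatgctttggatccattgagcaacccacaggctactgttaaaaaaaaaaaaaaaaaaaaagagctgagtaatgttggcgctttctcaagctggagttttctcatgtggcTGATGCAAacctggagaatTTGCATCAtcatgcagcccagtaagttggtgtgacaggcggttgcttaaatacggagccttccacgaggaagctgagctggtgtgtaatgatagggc
Each motif was searched on both strands. TTGCATCA, the letters of the amino acid response element bound by ATF4, began 66 and 47 bases before the start site of Slc7a11. These letters were in 3.03% of member windows (5 of 165, in Slc7a11, Slc1a4, Slc50a1 and Slc7a7), beside 0.895% of all 32851 windows. TGACNNNGC, the core of the antioxidant response element, was in 18.2% of member windows and 12.4% of all. The E-box CACGTG was in 11.5% of member windows and 7.15% of all, and TGANTCA, the AP-1 motif, in 4.24% and 7.81%. The Slc16a12 window held TGACNNNGC from 206 bases before and from 24 bases after the start site, and CACGTG from 240 bases before it. The Slc16a11 and Slc15a2 windows held none of these 4 motifs. A match describes letters and not binding.

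In secretory-like cells Slc15a2, Slc6a6 and Slc16a11 were again lower in donor-derived cells, with the sodium-coupled carrier Slc5a8 and the fatty acid protein Slc27a2 beside them. Slc39a4 and Slc39a8 (zinc), Slc23a1 (ascorbate) and Slc7a2 (cationic amino acids) were among the higher ones. Of 148 members tested, 16 were higher and 22 lower, which is 25.7% beside 14.0% of all 10856 genes tested (5.81% higher and 8.22% lower). The median log2 fold change was -0.026 over the members and -0.0041 over all genes. The other 15 members reached at most 3.9 CPM in any library of the class. Leaving out 1 library gave 30 to 40 calls, and 21 members were called in every alternative. On the lower side these were Slc16a11, Slc15a2, Slc6a6, Slc5a8, Slc27a2, Slc6a15, Slc50a1, Slc35a1, Slc4a7, Slc13a2, Slc22a23, Slc38a1, Slc11a2 and Slc7a4, and on the higher side Slc7a2, Slc43a2, Slc16a12, Slc6a14, Slc39a8, Slc39a4 and Slc9a3r2.

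Slc16a11 had 11.01 and 5.51 CPM in the donor-derived libraries, 321 and 287 CPM in the endogenous ones and 375 CPM in the control (log2 fold change -5.43 ± 0.23, edgeR adjusted p = 2.24e-06). Slc5a8 (SMCT1), which takes up lactate, pyruvate and butyrate with sodium, had 0.847 and 0.501 CPM in the donor-derived libraries, 24.4 and 27.2 CPM in the endogenous ones and 28.3 CPM in the control (log2 fold change -5.44 ± 0.35, edgeR adjusted p = 3.61e-06). Slc15a2 had 20.7 and 13.9 CPM in the donor-derived libraries, 278 and 289 CPM in the endogenous ones and 319 CPM in the control (log2 fold change -4.18 ± 0.17, edgeR adjusted p = 1.94e-07). No groups of these 3 genes overlapped, and the control lay above both endogenous libraries. Slc6a6 had 51.6 and 29.1 CPM in the donor-derived libraries, 166 and 105 CPM in the endogenous ones and 153 CPM in the control (log2 fold change -1.89 ± 0.35, edgeR adjusted p = 0.0385), close to the threshold. Slc27a2 (FATP2, an acyl-CoA synthetase and fatty acid carrier) had 1.27 and 2.67 CPM in the donor-derived libraries and 13.6 and 12.8 CPM in the endogenous pair (log2 fold change -2.62 ± 0.33). Slc6a15, a carrier of branched-chain amino acids and proline, had 0 and 1.002 CPM in the donor-derived libraries and 10.9 and 8.70 CPM in the endogenous pair. These groups did not overlap either.

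The higher members of secretory-like cells were led by Slc7a2, at 57.99 and 35.9 CPM in the donor-derived libraries, 5.60 and 4.76 CPM in the endogenous ones and 6.16 CPM in the control (log2 fold change 3.04 ± 0.25, edgeR adjusted p = 2.4e-05). Slc43a2 had 40.6 and 27.7 CPM in the donor-derived libraries and 3.09 and 5.25 CPM in the endogenous pair, and Slc16a12 had 33.9 and 29.9 CPM against 6.77 and 3.45 CPM (log2 fold changes 2.91 ± 0.28 and 2.53 ± 0.25). All 3 genes were called in every alternative. Slc23a1 (SVCT1, an ascorbate carrier) had 11.8 and 25.7 CPM in the donor-derived libraries, 2.21 and 3.28 CPM in the endogenous ones and 2.67 CPM in the control (log2 fold change 2.80 ± 0.43, edgeR adjusted p = 0.00456). Its call was lost when the unnamed cluster 2 was joined to the class (edgeR adjusted p = 0.122), as were those of Slc5a9 (SGLT4, a mannose carrier), Slc9a4 (a sodium-proton exchanger), Slc1a3 and Slc2a12.

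Of the 24 metal carriers, 4 were higher in donor-derived secretory-like cells and 1 lower, with 23 tested. Slc39a8 (ZIP8, which imports zinc, manganese and iron) had 95.2 and 90.8 CPM in the donor-derived libraries, 32.99 and 45.6 CPM in the endogenous ones and 25.4 CPM in the control (log2 fold change 1.15 ± 0.17, edgeR adjusted p = 0.00134). Slc39a4 had 112 and 88.3 CPM in the donor-derived libraries, 50.1 and 52.9 CPM in the endogenous ones and 36.9 CPM in the control (log2 fold change 0.86 ± 0.14). Slc39a10 (ZIP10) and Slc40a1 (ferroportin, the iron exporter) were the other higher ones, and both calls were lost in DESeq2 (adjusted p = 0.145 and 0.179). That of Slc40a1 was also lost without the donor-derived or the endogenous day 56 library (edgeR adjusted p = 0.431 and 0.0712). Slc11a2 (DMT1), the proton-coupled importer of ferrous iron, was lower at 8.04 and 8.35 CPM in the donor-derived libraries, 21.4 and 22.6 CPM in the endogenous ones and 31.2 CPM in the control (log2 fold change -1.49 ± 0.21). Of 22 Slc35 carriers, 0 were higher and 4 lower: Slc35a1 (CMP-sialic acid), Slc35a3 (UDP-N-acetylglucosamine), Slc35c1 (GDP-fucose) and Slc35d2. Slc35a3 and Slc35c1 were lost in DESeq2 (adjusted p = 0.0806 and 0.0602), and Slc35a3 and Slc35d2 without the donor-derived day 56 library (edgeR adjusted p = 0.0681 and 0.092). Slc35a1 had 30.5 and 25.6 CPM in the donor-derived libraries and 53.3 and 43.01 CPM in the endogenous pair (log2 fold change -0.89 ± 0.16). Of the 38 carriers of other organic solutes 1 was higher and 8 were lower, with 33 tested, and those lower included the vitamin C carrier Slc23a2 and the nucleoside carrier Slc28a3, whose calls were lost in DESeq2 (adjusted p = 0.171 and 0.135). That of Slc23a2 was also lost at Leiden resolution 0.5, when clustering without the SLC genes (edgeR adjusted p = 0.145 and 0.134) and without the donor-derived or the endogenous day 56 library (0.0617 and 0.063), and that of Slc28a3 without the donor-derived day 40 library (0.0614). Slc9a3r2 (NHERF2), a scaffold and not a carrier, had 33.4 and 33.9 CPM in the donor-derived libraries and 14.3 and 14.8 CPM in the endogenous pair (log2 fold change 1.13 ± 0.16).

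**Figure D2:**
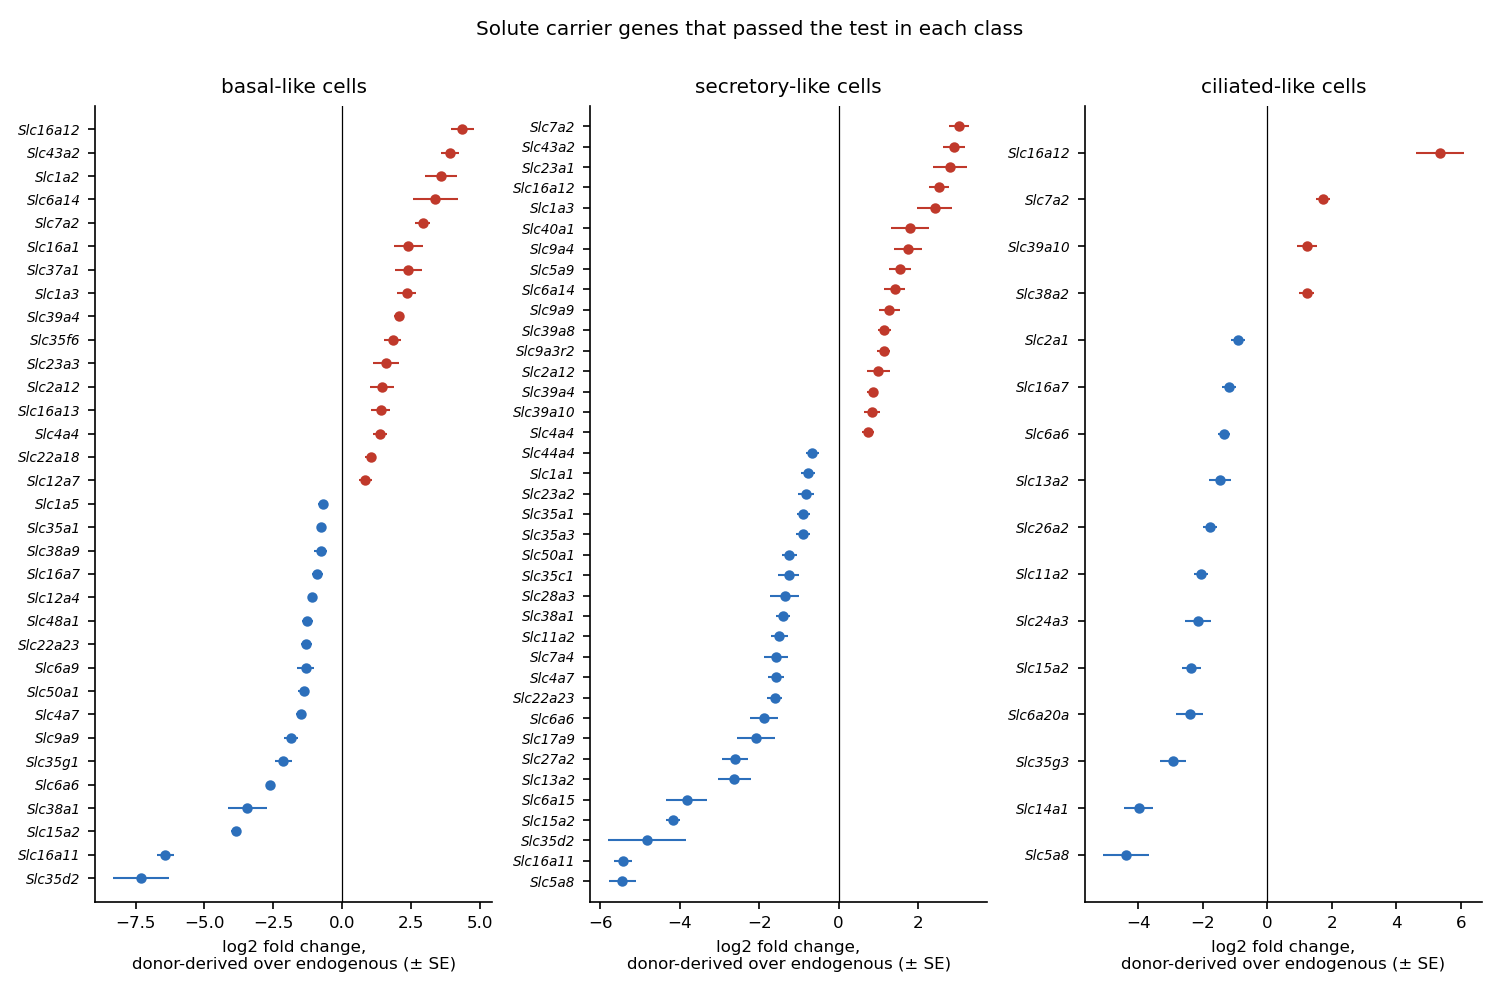
Log2 fold change of donor-derived over endogenous cells (x axis, bars are ± 1 SE, 2 libraries a group) for the SLC members at an edgeR adjusted p under 0.05 in each class, higher in red and lower in blue. Slc16a11 reaches -6.43 in basal-like cells, Slc15a2 and Slc5a8 reach -4.18 and -5.44 in secretory-like cells, and Slc16a12 reaches 4.37 in basal-like cells.

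In ciliated-like cells more members were lower than higher: 4 were higher and 12 lower of 125 tested, which is 12.8% beside 4.82% of all 10013 genes tested (2.27% higher and 2.56% lower). The median log2 fold change was -0.19 over the members and -0.0035 over all genes. The other 38 members reached at most 29.6 CPM in any library of the class. Without the endogenous day 40 library 1 member was higher and 3 lower, without the endogenous day 56 library 1 and 4, and without the donor-derived day 40 library 7 and 22. That last library held 33 ciliated-like cells, of which 11 lay in cluster 6, whose other recipient cells were all endogenous. Leaving out cells in clusters of the other gate gave 5 higher and 17 lower. Scgb1a1 was at 26210 and 19400 CPM in donor-derived ciliated-like cells, against 724 and 454 CPM in their endogenous and 1693 CPM in their control counterparts, and 5 markers of dividing cells summed to 68.99 and 57.06 CPM, against sums of 8.20 and 5.13 CPM in the endogenous libraries and 5.64 CPM in the control, with 5 and 5, 4 and 3, and 3 of the 5 detected. The part of either in these results was not tested.

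The members called in every alternative were Slc14a1, Slc11a2, Slc26a2 and Slc16a12. Slc14a1 (the urea transporter UT-B) had 3.29 and 1.43 CPM in the donor-derived libraries, 34.3 and 29.4 CPM in the endogenous ones and 18.5 CPM in the control (log2 fold change -3.99 ± 0.45, edgeR adjusted p = 0.00201). Slc11a2 had 23 and 22.8 CPM in the donor-derived libraries, 103 and 80.7 CPM in the endogenous ones and 122 CPM in the control (log2 fold change -2.06 ± 0.23, edgeR adjusted p = 0.00187). Slc26a2, the sulfate carrier, had 27.9 and 42.8 CPM in the donor-derived libraries, 132 and 114 CPM in the endogenous ones and 103 CPM in the control (log2 fold change -1.78 ± 0.22, edgeR adjusted p = 0.00253). For these 3 genes both donor-derived libraries lay below all others. Slc16a12 had 14.8 and 29.9 CPM in the donor-derived libraries, 0 and 0.933 CPM in the endogenous ones and 4.03 CPM in the control, and on 2 endogenous UMIs its ratio of pooled levels was 51.9 (95% interval 13.7 to 440, counting error only).

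Slc15a2 had 45.99 and 20.7 CPM in the donor-derived libraries, 139 and 157 CPM in the endogenous ones and 218 CPM in the control, and Slc6a6 had 205 and 142 CPM against 432 and 404 CPM and 413 CPM (log2 fold changes -2.36 ± 0.30 and -1.34 ± 0.19). Slc7a2 had 55.9 and 54.2 CPM in the donor-derived libraries, 16.9 and 14.9 CPM in the endogenous ones and 10.5 CPM in the control (log2 fold change 1.72 ± 0.23). The groups of these genes did not overlap, but all 3 calls were lost without either endogenous library (edgeR adjusted p up to 0.0571, 0.108 and 0.0745). Slc38a2 had 44.4 and 59.9 CPM in the donor-derived libraries and 24.1 and 20.5 CPM in the endogenous pair, and Slc2a1 had 34.5 and 34.2 CPM against 67.1 and 57.4 CPM (log2 fold changes 1.21 ± 0.24 and -0.91 ± 0.21). Both calls were lost in DESeq2 (adjusted p = 0.138 and 0.31), without either endogenous library and without the donor-derived day 56 library. That of Slc2a1 was also lost at Leiden resolution 0.5 and with the unnamed cluster 12 joined (edgeR adjusted p = 0.0587 and 0.0563). Slc5a8, Slc13a2 (the sodium dicarboxylate carrier NaDC1) and Slc39a10 passed without the recipient block and not with it (edgeR adjusted p = 0.0848, 0.0772 and 0.0517). Slc6a20a (an imino acid carrier), Slc24a3 (a sodium-calcium exchanger), Slc35g3 and Slc16a7 were lower as well, but each of these calls was lost without the endogenous day 40 library. Those of Slc6a20a, Slc24a3 and Slc16a7 were also lost without the endogenous day 56 library. Slc24a3 was further lost in DESeq2 (adjusted p = 0.0647) and without the donor-derived day 56 library. Slc6a20a was further lost at Leiden resolution 0.5 and with cluster 12 joined (edgeR adjusted p = 0.128 and 0.13).

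Slc16a11 did not pass in ciliated-like cells, where its donor-derived libraries stood far apart: it had 169 and 2.14 CPM in the donor-derived libraries, 501 and 458 CPM in the endogenous ones and 541 CPM in the control (edgeR adjusted p = 0.625). Without the 11 cells that lay in cluster 6 its donor-derived day 40 level was 25.3 CPM, on 9 UMIs. The zinc importer Slc39a6 was at 27.9 CPM in that library with these cells and at 11.2 CPM without them, and Slc13a2 at 41.1 and 22.5 CPM. Slc7a11 was at 52.6 CPM with them and 78.6 CPM without, and the phosphate carrier Slc34a2 at 27.9 and 42.1 CPM.

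The donor-derived effect was compared between classes in a fit with a term for each library, whose interaction is the log2 effect in one class minus that in secretory-like cells. In basal-like cells the effect was more positive for 12 members and more negative for 8 of 153 tested, which is 13.1% beside 8.33% of all genes (5.36% and 2.98%). Slc9a9 had the lowest adjusted p (-3.14 ± 0.36, edgeR adjusted p = 4.15e-07). It had 5.66 and 5.001 CPM in the donor-derived libraries and 17.8 and 17.7 CPM in the endogenous pair in basal-like cells, and 13.1 and 13.03 CPM against 6.18 and 3.94 CPM in secretory-like cells, so the groups separated in opposite directions. Slc39a4 was higher in donor-derived cells of both classes, by more in basal-like cells (1.18 ± 0.18, edgeR adjusted p = 3.84e-05). Slc5a3, the sodium myo-inositol carrier, had 24.3 and 45.01 CPM in the donor-derived libraries and 46.99 and 69.7 CPM in the endogenous pair in basal-like cells, and 15.7 and 29.1 CPM against 17.4 and 16.9 CPM in secretory-like cells (-1.17 ± 0.23, edgeR adjusted p = 0.00074), and was called in neither class alone. Slc35g1 (-1.80 ± 0.37) was the other member called in every alternative run on this comparison. Those were RLE factors, no filter, cells of the other gate left out and each library left out. Slc16a12 (1.86 ± 0.54), Slc7a11 (1.81 ± 0.38) and Slc1a2 (2.85 ± 0.74) passed too, and each lost its call when one of the endogenous libraries was left out. Without the endogenous day 40 library 5 members were more positive and 4 more negative.

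In ciliated-like cells the effect was more positive for 2 members and more negative for 8 of 144 tested, which is 6.94% beside 3.01% of all genes (1.73% and 1.28%). Slc15a2 was lower in donor-derived cells of both classes, by less in ciliated-like cells (1.80 ± 0.26, edgeR adjusted p = 0.000788). Slc23a1 had 104 and 103 CPM in the donor-derived libraries and 116 and 109 CPM in the endogenous pair in ciliated-like cells, beside its higher level in donor-derived secretory-like cells (-2.99 ± 0.38, edgeR adjusted p = 0.000925). Slc26a2, lower in donor-derived ciliated-like cells, had 79.6 and 58.3 CPM in the donor-derived libraries and 54.5 and 54.2 CPM in the endogenous pair in secretory-like cells (-1.96 ± 0.27, edgeR adjusted p = 0.000807). Slc5a9 (-1.51 ± 0.24) completed those called in every alternative run on this comparison. Joining cluster 2, with which the secretory-like calls of Slc5a9 and Slc23a1 were lost, was not among them. Leaving out cells in clusters of the other gate gave 8 more positive and 12 more negative members, without the donor-derived day 40 library there were 8 and 11, and without the endogenous day 40 library 1 and 4.

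**Figure D3:**
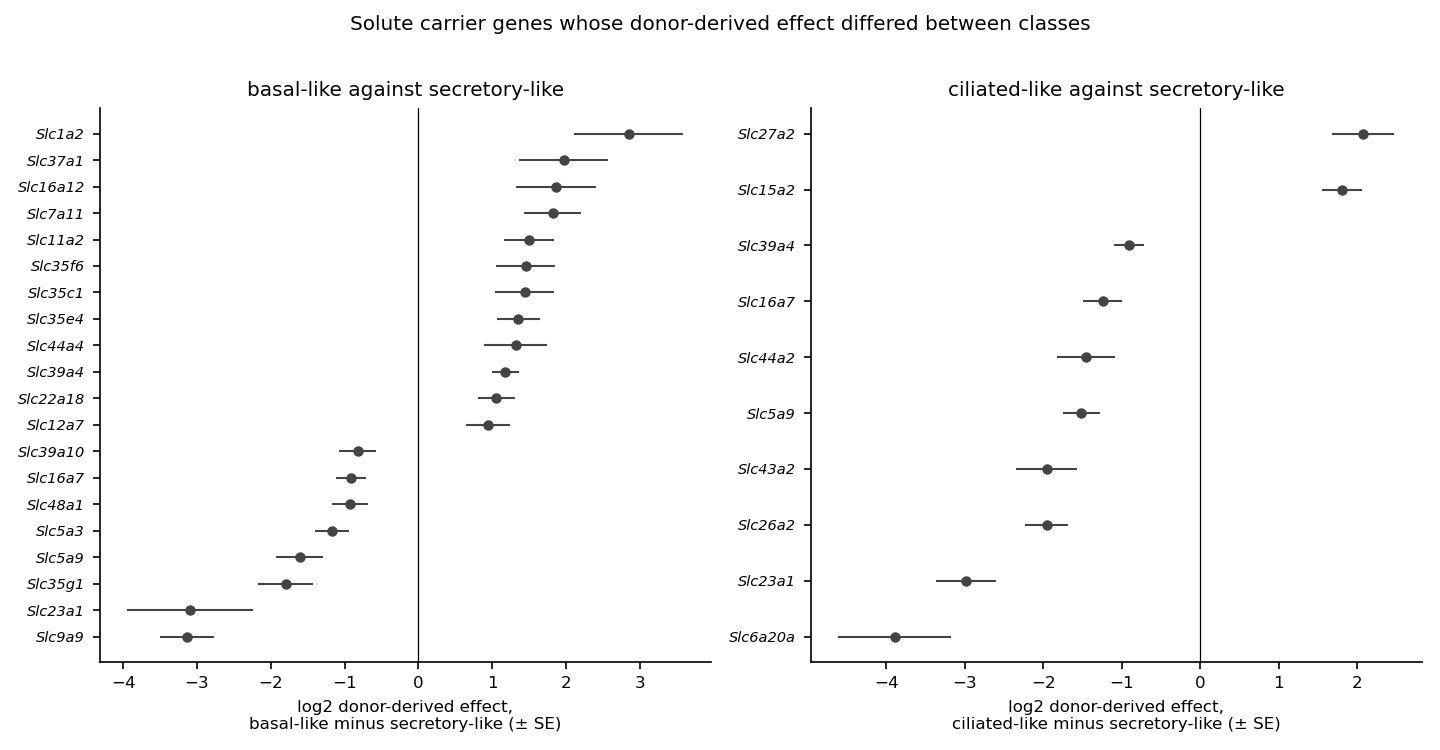
Difference of the log2 donor-derived effect (x axis, bars are ± 1 SE) in basal-like minus secretory-like and in ciliated-like minus secretory-like cells, for the 20 and 10 SLC members at an edgeR adjusted p under 0.05. Slc9a9 stands at -3.14 in the first comparison, and Slc15a2 at 1.80 and Slc23a1 at -2.99 in the second.

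Levels in both recipients, and so at both days, were compared within a group as the count of members at 20 CPM or more in one of the days that were at least 2-fold apart, beside the share of all genes counted the same way. In basal-like cells this was 1 of 52 donor-derived (Slc7a11) beside 2.40%, and 1 of 45 endogenous beside 1.14%. In secretory-like cells it was 1 of 41 donor-derived (Slc23a1) beside 1.68%, and 0 of 38 endogenous beside 0.994%. In ciliated-like cells it was 10 of 76 donor-derived beside 8.38%, and 2 of 77 endogenous beside 0.974%. With 1 recipient a day there is no test.

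Endogenous and control cells were compared by level alone, over too few members to set their share apart from that of all genes. With 1 control library there is no test, and a member was counted where both endogenous libraries were at least 2-fold from the control at 50 CPM or more. In basal-like cells 0 of 14 members were higher and 0 lower, beside 1.88% of all genes (1.28% higher and 0.592% lower). In secretory-like cells 0 of 8 were higher and 0 lower, beside 2.12% (2.06% and 0.0543%). In ciliated-like cells 1 of 36 was higher and 0 lower, beside 1.31% (1.09% and 0.223%). That member was Slc13a2, at 61.5 and 76.99 CPM in the endogenous libraries and 29.8 CPM in the control. At a minimum of 20 CPM the zinc exporter Slc30a4 was added in basal-like cells, at 27.8 and 25.6 CPM in the endogenous libraries and 8.07 CPM in the control, the last on 5 UMIs (exact Poisson 95% interval 2.62 to 18.8 CPM, counting error only).

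Levels were described across the 10 epithelial types with at least 20 cells in a library. The members took a larger share of UMIs in ciliated-like than in basal-like or secretory-like cells. Their share in ciliated-like cells was 0.479% and 0.445% in donor-derived, 0.588% and 0.557% in endogenous and 0.570% in control libraries, beside 0.237% to 0.343% over all libraries of the other 2 classes. In cluster 12, with Foxj1 in 92.5% of its cells, the members' share was 0.490% and 0.493% in endogenous and 0.429% in control libraries. It was 0.376% and 0.402% in endogenous tuft-like cells and 0.265% to 0.359% in the remaining types. The sum of 10 secretory markers was 312300 to 355900 CPM in secretory-like cells, and its part in the share there was not tested. Levels by type are a description, since the types were clustered from these counts, with 9 members among the genes used. By mean CPM over libraries, 41 of the 163 members (25.2%) were highest in tuft-like cells, where 3 UMIs amount to 12.8 and 17.3 CPM, beside 27.2% of the 11935 mouse features with at least 200 UMIs. Ciliated-like cells held the highest level of 38 members (23.3%, beside 19.1%), basal-like cells of 5 (3.07%, beside 3.35%), secretory-like cells of 3 (1.84%, beside 0.880%) and hillock-like cells of 10 (6.13%, beside 10.9%). Among the unnamed clusters the counts were 18 in cluster 10, 16 in cluster 12, 15 in cluster 0, 10 in cluster 2 and 7 in cluster 19, which is 11.0%, 9.82%, 9.20%, 6.13% and 4.29%, beside 12.5%, 3.99%, 8.49%, 3.18% and 10.5% of those features. The types with 20 cells in a library do not come from the same libraries: tuft-like and hillock-like cells were endogenous, clusters 0, 2 and 10 donor-derived and cluster 12 endogenous and control. Slc16a3 (MCT4, a lactate exporter) had 47.6 and 57.1 CPM in the donor-derived libraries, 61.5 and 50.9 CPM in the endogenous ones and 62.05 CPM in the control in ciliated-like cells, and at most 0.423 CPM in any library of basal-like or secretory-like cells. Slc9a3r1 (NHERF1, a scaffold under the apical membrane) was at 240 to 263 CPM over the libraries of ciliated-like cells, beside 11.9 to 37.7 CPM in those 2 classes. Slc23a2 (SVCT2) had 199 and 354 CPM in the donor-derived libraries, 278 and 267 CPM in the endogenous ones and 305 CPM in the control in ciliated-like cells. Levels of the 3 genes in ciliated-like cells overlapped between donor-derived and endogenous libraries.

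Tuft-like cells, a chemosensory type found here in 34 and 22 endogenous cells, had Slc38a1 at 196 and 167 CPM, beside 39.03 and 33.98 CPM in endogenous secretory-like cells. Slc4a8, a sodium-driven chloride bicarbonate exchanger, was at 124 and 184 CPM in tuft-like and at 39.96 and 34.5 CPM in endogenous ciliated-like cells. Slc40a1 was at 51.2 and 63.3 CPM in tuft-like cells and between 0.788 and 5.63 CPM in endogenous cells of the 3 main classes. The ionocyte marker Foxi1 was detected in 19.4% of the cells of cluster 21, the larger tuft-like cluster. Cluster 24, the smaller one with 1 and 2 endogenous cells, had the ciliated marker Foxj1 in 88.9%. The part of such cells in the tuft-like levels was not tested. Hillock-like cells, a squamous luminal type with 52 and 62 endogenous cells, had Slc38a2 at 181 and 296 CPM, beside 123 and 200 CPM in endogenous basal-like cells. By mean over libraries cluster 0 came next for Slc38a2, at 196 CPM beside 238.5 CPM in hillock-like cells. Levels of Slc38a2 in cluster 0 and in donor-derived basal-like cells overlapped the hillock-like ones. Slc5a3 was at 84.2 and 83.98 CPM in hillock-like cells, beside 53.3 and 80.2 CPM in endogenous ciliated-like cells. For Slc5a3 cluster 12 came next, at a mean of 59.9 CPM. Its endogenous day 56 library there (103 of 1167994 UMIs) lay above both hillock-like ones.

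Some clusters stayed unnamed because none of their best-scored types met the marker rule. The rule asked for at least 3 markers detected, and a marker among the 10 leading genes with no other type having more there. Cluster 10 (led by Ccl9, Serpinb1a and Spib), with 216 and 27 donor-derived cells, had Slc7a11 at 446 and 418 CPM, Slc28a2 (the purine nucleoside carrier CNT2) at 128 and 108 CPM, Slc2a6 (a lysosomal hexose carrier) at 116 and 117 CPM and Slc16a6 at 88.8 and 62.9 CPM. In basal-like and secretory-like cells the 4 genes reached at most 81.8, 4.15, 0.881 and 0.884 CPM in any library. Cluster 2 (Upk3a, Clu and Psca), with 496 and 115 donor-derived cells, had Slc4a4 at 153 and 132 CPM, Slc39a8 at 139 and 138 CPM, Slc5a9 at 133 and 86.8 CPM and Slc34a2 at 30.1 and 38.5 CPM. Cluster 0 (Cavin2, Apoc1 and Lmo1), with 90 and 676 donor-derived cells, had Slc1a3 at 102 and 156 CPM. Cluster 12 (Dnah5 and Cfap43), with 105 and 75 endogenous and 20 control cells, had Slc26a2 at 117 and 123 CPM in the endogenous libraries and 81.2 CPM in the control, and Slc11a2 at 93.1 and 71.9 CPM and 86.4 CPM. Cluster 19, of dividing cells, had Slc7a11 at 110 CPM in its 43 donor-derived cells of day 40 and 3.83 CPM in its 26 endogenous ones.

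**Figure D4:**
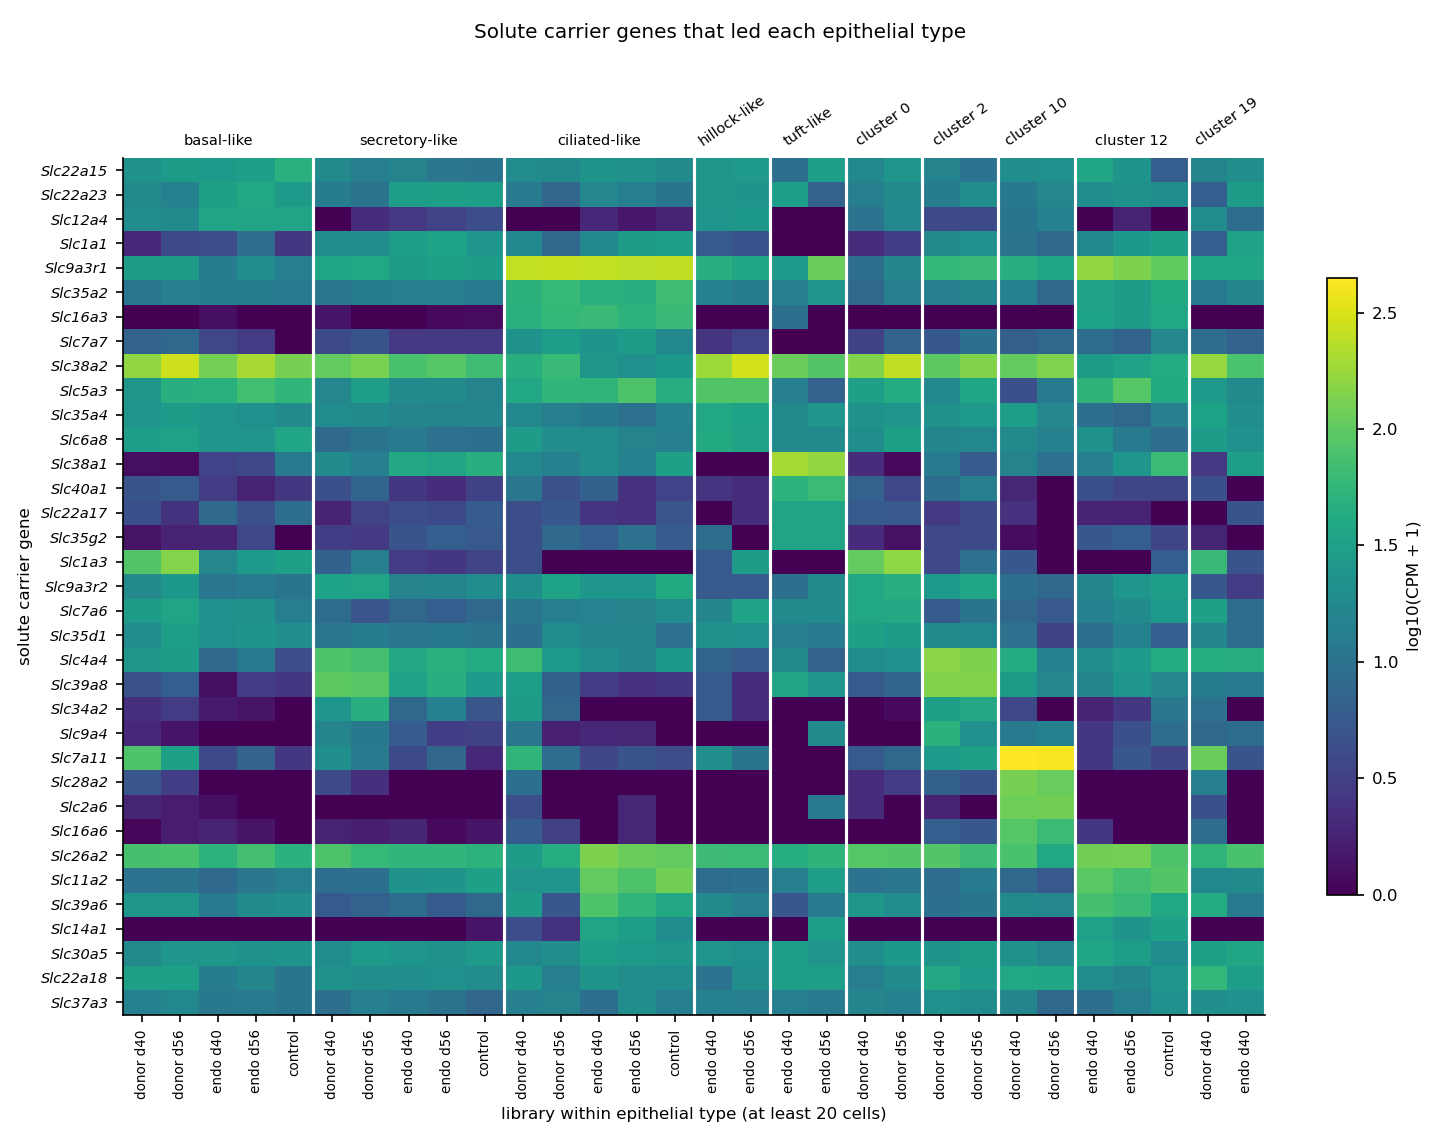
Level of SLC members that led an epithelial type, as log10(CPM + 1) by colour, with 1 column for each library of a type with at least 20 cells (donor-derived, then endogenous, then control within a type). Slc9a3r1 stands out in ciliated-like cells at 240 to 263 CPM, Slc38a1 in tuft-like cells at 196 and 167 CPM and Slc7a11 in cluster 10 at 446 and 418 CPM.

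In the endogenous libraries, 5 members at day 40 and 17 at day 56 had more than 50% of their UMIs in non-epithelial cells. Such cells numbered 214 of 1300 at day 40 and 414 of 1219 at day 56. The same count over all genes was not made, so neither count is a result about the members or the days. Slc15a3, Slc41a2, Slc29a3, Slc7a5 and Slc2a6 were those of day 40, with 95.2%, 78.5%, 67.2%, 62% and 53.8%. These shares leave out the donor-derived libraries, where cluster 10, an epithelial one, held 497 and 52 of the 723 UMIs of Slc2a6. Slc16a11 had 0.397% and 0.797% of its UMIs in non-epithelial cells, Slc15a2 0.344% and 0.677%, and Slc6a6 4.34% and 11.6%.

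Genes that work with the carriers were counted from lists, and each count stands beside the share of all genes called: 8.54% higher and 8.71% lower in basal-like, 5.81% and 8.22% in secretory-like and 2.27% and 2.56% in ciliated-like cells. Of 14 partner proteins of carriers 8 were tested in basal-like cells, and 0 were higher and 2 lower: Bsg (basigin) and Emb (embigin), the chaperones of monocarboxylate carriers. Bsg had 677 and 713 CPM in the donor-derived libraries, 802 and 882 CPM in the endogenous ones and 974 CPM in the control (log2 fold change -0.41 ± 0.12). In secretory-like cells 2 of 9 tested were higher, among them Slc9a3r2, and in ciliated-like cells 0 of 8 passed. Of 10 sodium pump subunits and regulators 5 were tested in basal-like cells, where 4 were lower, among them Fxyd1 and Fxyd3, and 0 higher, with a median of -0.60 beside 0.012 over all genes. In secretory-like cells 2 of 5 tested were lower, among them Fxyd1, and in ciliated-like cells Atp1b1 of 4.

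Of 12 glutathione and NRF2 genes, Gclm and Nqo1 were lower in basal-like cells, Gclm, Gsr, Nqo1 and Srxn1 in secretory-like cells and Gclc and Nqo1 in ciliated-like cells, with 12, 12 and 11 tested, and 0 were higher. Gclm, the regulatory subunit of glutathione synthesis, had 124 and 126 CPM in the donor-derived libraries, 474 and 498 CPM in the endogenous ones and 500 CPM in the control in basal-like cells (log2 fold change -2.10 ± 0.13). The list medians were 0.032, -0.42 and -0.28. Of 13 integrated stress response genes, Atf3 was higher in basal-like cells (10 tested), Ddit4 lower in secretory-like cells (9 tested) and 0 of 7 passed in ciliated-like cells. Of 4 zinc-handling genes, 3 were tested in each class, and the metallothioneins Mt1 and Mt2 were higher in basal-like cells, with Mt2 at 734 and 641 CPM in the donor-derived libraries, 317 and 313 CPM in the endogenous ones and 220 CPM in the control (log2 fold change 0.99 ± 0.13), and 0 of 3 passed in each of the other classes. Of 11 iron genes, with 10, 9 and 6 tested in the 3 classes, Ftl1, Heph (hephaestin) and Steap1 were lower and Aco1 higher in basal-like cells, Cp (ceruloplasmin) and Ireb2 higher and Steap1 lower in secretory-like cells, and Cp higher and Ftl1 lower in ciliated-like cells. Of 15 glycolysis genes, with 15, 15 and 14 tested, Ldhb, Pgam1 and Pkm were higher and Pfkl lower in basal-like cells, Ldhb and Pkm higher in secretory-like cells, and Ldhb higher and Hk1 and Pfkl lower in ciliated-like cells. Of 7 carbonic anhydrases, with 3, 5 and 4 tested, Car13 was higher and Car8 lower in basal-like cells, Car2 and Car13 higher and Car5b and Car12 lower in secretory-like cells, and Car2 higher and Car8 lower in ciliated-like cells. Of 6 Slco carriers, with 4, 4 and 3 tested, Slco1a5 was higher and Slco4c1 lower in basal-like cells, Slco1a5 higher and Slco3a1 lower in secretory-like cells, and 0 of 3 passed in ciliated-like cells. Of 9 plasma membrane ABC carriers, with 7, 6 and 4 tested, Abcb1b and Abcc5 were higher and Abca1, Abcc3 and Abcg1 lower in basal-like cells, Abcc5 higher and Abcc4 lower in secretory-like cells, and Abcc5 higher in ciliated-like cells.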

How the data were processed

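UMI counts per gene and barcode were deposited by the authors. Cell Ranger, STARsolo, Seurat, GRCh38 and GRCm38 appear in the submitters' processing notes. Barcodes with at most 10% human UMIs (192 of the control exceeded it), at least 500 genes and at most 20% mitochondrial UMIs were kept, and 48 doublets called by Scrublet were removed. Cells were clustered with scanpy 1.11.5 (2000 variable genes, 30 components, 15 neighbours, Leiden resolution 1.0) and named from marker lists. Counts were summed per class and library (608782 to 7946274 UMIs, so that 3 UMIs are 4.93 to 0.378 CPM, floors that cover counting error only) and tested with edgeR 4.0.16 (TMM, filterByExpr, quasi-likelihood). The SE is the log2 fold change over the square root of F.

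Both libraries of a day are from 1 recipient, per the labels, and their deviations correlated at 0.277, 0.150 and 0.0124 in the basal-like, secretory-like and ciliated-like class. Alternatives were the recipient as a block, DESeq2 1.42.0, RLE factors, no filter, other clusterings, doublets kept and leaving out each library. Joining unnamed clusters and leaving out cells of the other gate were chosen after seeing the data. The effects compared between classes were rerun only with RLE factors, no filter, cells of the other gate left out and each library left out. Members, lists and tests were chosen with earlier results of these data known. Members named were the most abundant, the largest called changes per class, up to 4 called per role, the leaders of each type, those nearest the UMI minimum and a fixed set. The fits were also run on independent simulated counts with the same dispersion for all genes and no recipient or cluster effects. That run cannot show how the test behaves where 1 library decides a call.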

Additional observations from a re-analysis of the deposited data

Results flagged for a closer look

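The donor-derived effect differed between basal-like and secretory-like cells for 20 members by the test of the interaction itself (edgeR adjusted p under 0.05). Basal-like minus secretory-like, it was more positive for Slc1a2 (2.85), Slc37a1 (1.96), Slc16a12 (1.86), Slc7a11 (1.81), Slc11a2 (1.5), Slc35f6 (1.45), Slc35c1 (1.44), Slc35e4 (1.35), Slc44a4 (1.32), Slc39a4 (1.18), Slc22a18 (1.05) and Slc12a7 (0.95), as differences of log2 fold changes. It was more negative for Slc9a9 (-3.14), Slc23a1 (-3.09), Slc35g1 (-1.80), Slc5a9 (-1.61), Slc5a3 (-1.17), Slc48a1 (-0.93), Slc16a7 (-0.92) and Slc39a10 (-0.82). Slc23a1 had few UMIs in basal-like cells, where it was not tested alone. In the endogenous basal-like sums Slc1a2 had 1 and 3 UMIs, Slc37a1 4 and 2 and Slc16a12 5 and 1. Only Slc9a9, Slc39a4, Slc5a3 and Slc35g1 were called in every alternative run on this comparison. The calls of Slc12a7 and Slc44a4 were lost with RLE factors (edgeR adjusted p = 0.0537 and 0.0584).

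Ciliated-like minus secretory-like, the effect was more positive for Slc27a2 (2.07) and Slc15a2 (1.80) by the same test. It was more negative for Slc6a20a (-3.90), Slc23a1 (-2.99), Slc43a2 (-1.96), Slc26a2 (-1.96), Slc5a9 (-1.51), Slc44a2 (-1.46), Slc16a7 (-1.24) and Slc39a4 (-0.91). Only Slc5a9, Slc15a2, Slc23a1 and Slc26a2 were called in every alternative run on this comparison. Slc6a20a had 5 and 18 donor-derived and 7 and 5 endogenous UMIs in secretory-like cells.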

How the results depend on the processing

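No called member changed direction in any alternative. Leaving out 1 library gave 13 to 33 called members in basal-like cells (33 with all), 30 to 40 in secretory-like cells (38) and 4 to 29 in ciliated-like cells (16), and 9 to 21 (20) and 5 to 19 (10) for the effects in basal-like and ciliated-like against secretory-like cells. With no filter on low counts 28 members were called in ciliated-like cells and 21 in the ciliated-like against secretory-like comparison, and with cells of the other gate left out 20 in that comparison. At a level minimum of 20 CPM 1 member separated endogenous from control basal-like cells, and 0 at 50 CPM. The replicate block gave 48 calls in basal-like, 40 in secretory-like and 16 in ciliated-like cells. It lost Slc5a8, Slc13a2 and Slc39a10 in ciliated-like cells and no other call, and gained Slc7a11 in basal-like cells among others. DESeq2 called 24, 29 and 12. With an unnamed cluster joined to each class, 25 of the 33, 33 of the 38 and 13 of the 16 calls were kept. A minimum of 100 or 400 UMIs gave 177 or 137 members.

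Slc3a2, which passed in no setting, changed sign. In basal-like cells its log2 fold change was 0.006 and 0.026 at Leiden resolution 0.5 and 2.0, 0.061 with the unnamed cluster joined and -0.246 to 0.156 with 1 library left out. In secretory-like cells it was -0.062 at resolution 2.0, -0.087 with doublets kept, -0.128 with the unnamed cluster joined and -0.078 to 0.16 with 1 library left out. Slc38a2 in basal-like cells spanned -0.124 to 0.694 with 1 library left out. The cause of these shifts was not tested. Of the sums tested, the shallowest was that of the 33 ciliated-like cells of the donor-derived day 40 library (608782 UMIs), and the tuft-like sums, which are only described, had 234193 and 173727 UMIs.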
